A study of Homo sapiens with 6 samples.

Results

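The genes described here are 9 enzymes of serine synthesis and of the folate-dependent one-carbon pathway: PHGDH, PSAT1, PSPH, SHMT1, SHMT2, MTHFD1, MTHFD2, MTHFD1L and ALDH1L2. They were taken by symbol from the 61806 genes of the deposited table, where each symbol had a single row. RNA-seq was performed on HCT116, a human colorectal carcinoma cell line that the labels call wildtype in the control group. One group of 3 libraries, si-NC, carries the name of a control short interfering RNA, and the other group of 3, si-STRIP2, is labelled as a knockdown of STRIP2, a component of STRIPAK, an assembly of a phosphatase with kinases. All 6 libraries came from cells grown in the same medium, with total RNA extracted and poly(A) RNA selected. The labels give no dose, time or sequence of the interfering RNA, nor whether the replicates were grown as separate cultures, so that p-values measure the spread between these libraries, which may be technical.

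Serine is made from the glycolytic intermediate 3-phosphoglycerate by PHGDH, which oxidises it, PSAT1, which adds the amino group, and PSPH, which removes the phosphate. Serine hydroxymethyltransferases then move a carbon unit from serine to tetrahydrofolate and leave glycine, SHMT1 in the cytosol and SHMT2 mainly in mitochondria. In mitochondria MTHFD2 oxidises the folate-bound unit, MTHFD1L releases it as formate, and ALDH1L2 burns it to carbon dioxide with the gain of NADPH, whereas in the cytosol MTHFD1 joins formate to folate again and passes the unit on. The units serve purine, thymidylate and methionine synthesis, and several of these genes are known targets of the stress transcription factor ATF4.

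Sequences upstream of the start were examined because 3 members that rose, PHGDH, SHMT1 and MTHFD1, can be set beside MTHFD1L, the mitochondrial relative of MTHFD1, whose change did not pass the test. RefSeq windows on GRCh38.p14 were found for 6 of the 9 genes, and PSPH, SHMT2 and ALDH1L2 had no entry. The 250 bases before the start are printed 5′ to 3′ on the strand of the gene for PHGDH (chr1:119711684-119711933, plus strand), SHMT1 (chr17:18363551-18363800, minus strand), MTHFD1 (chr14:64388103-64388352, plus strand) and MTHFD1L (chr6:150866236-150866485, plus strand, the first listed of its 4 windows). Capitals mark matches, on either strand, to the E-box CACGTG bound by MYC and related factors, to TGATGNAA, the core of the composite element of ATF4 and C/EBP factors, and to the CCAAT box CCAAT.
PHGDH: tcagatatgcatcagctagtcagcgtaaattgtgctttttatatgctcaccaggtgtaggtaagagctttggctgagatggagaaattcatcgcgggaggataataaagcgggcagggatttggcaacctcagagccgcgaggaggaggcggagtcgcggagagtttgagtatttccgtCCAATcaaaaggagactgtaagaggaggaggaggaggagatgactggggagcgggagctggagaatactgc
SHMT1: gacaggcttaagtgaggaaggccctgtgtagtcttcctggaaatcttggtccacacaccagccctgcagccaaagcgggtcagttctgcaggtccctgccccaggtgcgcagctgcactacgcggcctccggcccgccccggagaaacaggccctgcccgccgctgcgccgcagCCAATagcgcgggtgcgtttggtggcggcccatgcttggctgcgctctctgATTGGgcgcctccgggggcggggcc
MTHFD1: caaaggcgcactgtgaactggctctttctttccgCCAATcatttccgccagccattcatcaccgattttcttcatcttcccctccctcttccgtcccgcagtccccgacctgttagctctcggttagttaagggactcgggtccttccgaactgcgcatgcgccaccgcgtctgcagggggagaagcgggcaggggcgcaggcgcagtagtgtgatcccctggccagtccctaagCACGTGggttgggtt
MTHFD1L: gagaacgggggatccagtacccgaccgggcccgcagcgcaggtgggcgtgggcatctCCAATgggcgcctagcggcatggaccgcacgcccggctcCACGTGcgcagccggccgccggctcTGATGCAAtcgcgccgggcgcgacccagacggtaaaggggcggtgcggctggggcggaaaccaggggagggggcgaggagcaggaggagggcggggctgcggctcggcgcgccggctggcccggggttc
MTHFD1 had an E-box that began 15 bases before the start, and MTHFD1L had one that began 154 bases before it. An E-box was present in 6.34% of all 35116 windows of this length. TGATGNAA was found in this window of MTHFD1L, 129 bases before the start, and in 3.14% of all windows. Of the 4 windows of MTHFD1L, 2 had neither of these motifs, so the matches depend on the start used. PHGDH and SHMT1 had neither motif in these windows, and the same was true of the windows of PSAT1 and MTHFD2. The windows of PHGDH and MTHFD2 lie well inside the deposited genes. They begin at 119711684 and 74198365, where the genes begin at 119648411 and 74186172. Starts further upstream were not searched, so the absence of motifs there also depends on the start used. CCAAT was present in 32.0% of all windows and in those of all 4 printed genes, with 2 matches in SHMT1. The windows of PSAT1, which also rose, and MTHFD2, which did not pass the test, are not printed. They held 3 and 2 CCAAT matches. The antioxidant response element TGACNNNGC, also searched, was present in 10.9% of all windows and in none of the windows of these 6 genes. No marked matches overlapped one another in the printed windows. These are matches of letters, with no measurement of binding.

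Library totals were between 17184963 and 21721218 counts, and the 9 genes together held 0.226% to 0.243% of the counts in si-NC and 0.256% to 0.258% in si-STRIP2. Mitochondrial genes took 4.88% to 8.88% of the counts in si-NC and 5.73% to 6.30% in si-STRIP2. Pairs of si-NC libraries differed more from each other than pairs of si-STRIP2 libraries. The chi-square per degree of freedom of their counts was 4.96 to 16.93 in si-NC and 2.15 to 2.28 in si-STRIP2. The edgeR fit estimates the spread over both groups together. STRIP2 itself was at 3.59 ± 0.347 FPKM (SD, n = 3) in the control and at 2.61 ± 0.0929 FPKM in the knockdown, or 72.8% of control by the fit (edgeR adjusted p = 1.62e-05). Of all genes tested, 25.4% had a larger absolute log2 fold change than STRIP2. FPKM is the count of a gene scaled by its exonic size and by the total of the library. Of 7 epithelial markers, 6 had a mean of at least 1 FPKM, and VIL1 was near 0. Immune and endothelial marker genes each stayed at or below 0.28 FPKM in every library, and of 4 fibroblast markers COL1A1 alone was higher, at 1.89 to 2.55 FPKM, and DCN was listed at 0 in every library. The epithelial markers summed to 691 to 721 FPKM in si-NC and 667 to 691 in si-STRIP2. Within that sum KRT8, KRT18 and CDH1 were lower in si-STRIP2 without overlap, KRT19 and CDX2 were higher without overlap, and EPCAM overlapped. CDH1 had 35.10, 37.95 and 36.75 FPKM in si-NC and 23.99, 24.01 and 24.55 in si-STRIP2. KRT19 had 143.28, 141.23 and 135.44 FPKM in si-NC and 162.4, 169.03 and 160.0 in si-STRIP2.

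All 9 genes passed the filter on low counts. Of these, 7 were called at an edgeR adjusted p under 0.05, against 54.8% of the 15687 genes tested. The 5 that rose were PHGDH, PSAT1, SHMT1, MTHFD1 and SHMT2, and the 2 that fell were PSPH and ALDH1L2. MTHFD2 and MTHFD1L did not pass. In bulk libraries such as these, fewer cells with a transcript and less of it per cell cannot be told apart. Among all genes tested, 27.8% were called higher and 27.0% lower. The median log2 fold change was 0.16 over the 9 genes and 0.014 over all genes tested, and the median of the absolute log2 fold change was 0.43 and 0.26. For 7 of the 9 genes the libraries of one group all lay above those of the other, against 58.6% of all genes tested. The higher group exceeded the lower by at least 25% for 5 called genes of the 9 (PHGDH, PSPH, SHMT1, MTHFD1 and ALDH1L2), against 32.9% of all genes tested.

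**Figure D1:**
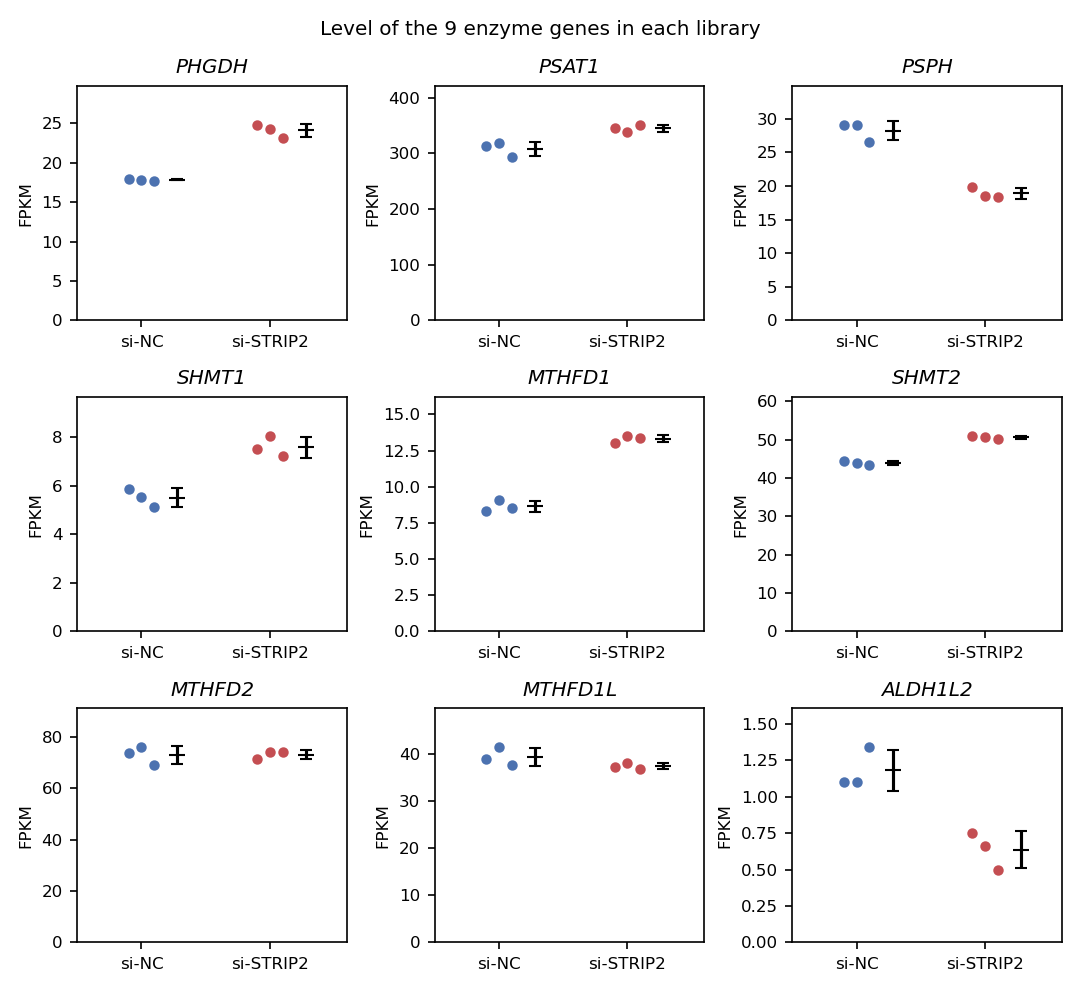
FPKM of each of the 9 genes (vertical axes from 0) in the 3 si-NC libraries (blue) and the 3 si-STRIP2 libraries (red), with the mean and SD of each group in black. The groups are separate in 7 panels and overlap for MTHFD2 and MTHFD1L.

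The 3 steps of serine synthesis did not move together. The transcripts of the first and second enzymes rose and that of the last enzyme fell. PHGDH (ENSG00000092621, chromosome 1, 119648411 to 119744218, plus strand, GRCh38.p13 as for all gene positions from the deposited table) encodes the dehydrogenase that commits 3-phosphoglycerate to serine. It had 17.88, 17.84 and 17.74 FPKM in si-NC and 24.77, 24.33 and 23.17 FPKM in si-STRIP2. Every si-STRIP2 library lay above every si-NC library, and the control libraries differed among themselves by a coefficient of variation of 0.405%. The level was 1.35-fold higher in si-STRIP2, or 0.43 ± 0.040 (standard error) on the log2 scale (edgeR adjusted p = 3.04e-11), on 2801 to 4274 counts per library.

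PSAT1 (ENSG00000135069, chromosome 9, 78297125 to 78330093, plus strand), the aminotransferase of the second step, was the most abundant of the 9 per exonic length. It had 312.92, 318.56 and 293.83 FPKM in si-NC and 346.40, 337.65 and 350.98 FPKM in si-STRIP2. Every si-STRIP2 library lay above every control library. The rise was 11.6%, with a 95% interval of 5.04% to 18.6% (edgeR adjusted p = 0.00226). It did not pass a test against a change of 1.2-fold (edgeR adjusted p = 1).

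PSPH (ENSG00000146733, chromosome 7, 56011051 to 56051604, minus strand) encodes the phosphatase that releases serine. It had 29.04, 29.01 and 26.57 FPKM in si-NC and 19.84, 18.49 and 18.39 FPKM in si-STRIP2, with no overlap. The level in si-STRIP2 was 66.9% of control (-0.58 ± 0.049, log2 fold change and its standard error, with an edgeR adjusted p of 3.91e-12). The annotated pseudogene PSPHP1 held 9.46% as many counts as PSPH and had a log2 fold change of -0.37 (edgeR adjusted p = 0.0218). How reads that match both loci were treated, whether counted or dropped, is not given in the sources used here. The values of PSPH and PSPHP1 are uncertain to that extent.

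Both cytosolic folate enzymes rose. SHMT1 (ENSG00000176974, chromosome 17, 18327860 to 18363563, minus strand) had 5.87, 5.53 and 5.11 FPKM in si-NC and 7.49, 8.04 and 7.21 FPKM in si-STRIP2. The groups were separate, and SHMT1 rose by 0.45 ± 0.057 (standard error) on the log2 scale (edgeR adjusted p = 3.06e-08), a level of 137% of control. SMCR8, whose exons overlap SHMT1 on the other strand, held 68.2% as many counts, and its log2 fold change was -0.071 (edgeR adjusted p = 0.359). The strand setting of the counting is not given in the sources used here. The value of SHMT1 is uncertain to that extent, and the share of SMCR8 reads in it was not tested.

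MTHFD1 (ENSG00000100714, chromosome 14, 64388031 to 64463457, plus strand), which joins formate to tetrahydrofolate and interconverts the folate-bound units in the cytosol, had the largest rise of the 9. It had 8.30, 9.05 and 8.56 FPKM in si-NC and 13.04, 13.50 and 13.37 FPKM in si-STRIP2. The lowest si-STRIP2 library was well above the highest control library. The rise was 0.62 ± 0.041 (standard error) on the log2 scale (edgeR adjusted p = 8.20e-15), a level of 154% of control on 2554 to 4249 counts per library. Exons of ZBTB25 overlap it on the other strand, with 18.2% as many counts and a log2 fold change of 0.15 (edgeR adjusted p = 0.049). MTHFD1 is uncertain for the same reason as SHMT1, and the share of ZBTB25 reads in its value was not tested.

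The 4 mitochondrial enzymes went different ways. SHMT2 (ENSG00000182199, chromosome 12, 57229573 to 57234935, plus strand) had 44.52, 43.79 and 43.41 FPKM in si-NC and 50.90, 50.70 and 50.22 FPKM in si-STRIP2. Libraries of a group lay close together, with coefficients of variation of 1.28% and 0.691%, and the groups were separate. The rise was 15.0%, with a 95% interval of 8.82% to 21.4% (edgeR adjusted p = 4.50e-05), and it did not pass the test against a 1.2-fold change (edgeR adjusted p = 1).

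MTHFD2 (ENSG00000065911, chromosome 2, 74186172 to 74217565, plus strand), the mitochondrial dehydrogenase and cyclohydrolase that many tumours express strongly, had 73.65, 76.01 and 69.14 FPKM in si-NC and 71.23, 74.15 and 73.92 FPKM in si-STRIP2. The values of the si-STRIP2 libraries all lay within the range of the controls. The fitted change was 0.029%, with a 95% interval of -6.03% to 6.48% (edgeR adjusted p = 0.994), on 13597 to 18305 counts per library. MTHFD1L (ENSG00000120254, chromosome 6, 150865679 to 151101887, plus strand), the mitochondrial formate-releasing synthetase, had 38.83, 41.42 and 37.56 FPKM in si-NC and 37.10, 38.11 and 36.84 FPKM in si-STRIP2. The groups overlapped, and the fitted change was -5.07%, with a 95% interval of -10.4% to 0.582% (edgeR adjusted p = 0.121). This value depended on single settings: without si-NC replicate 3 the log2 fold change was -0.11 and was called (edgeR adjusted p = 0.0205), as it was with genes limited to at least 1 FPKM in 3 libraries (-0.093, edgeR adjusted p = 0.0344). Over the 15 alternatives the adjusted p ranged from 0.0205 to 1.

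ALDH1L2 (ENSG00000136010, chromosome 12, 105019784 to 105107643, minus strand), the mitochondrial dehydrogenase that oxidises formyl-tetrahydrofolate, was the least abundant of the 9 and had the largest fall. It had 1.10, 1.10 and 1.34 FPKM in si-NC and 0.75, 0.66 and 0.50 FPKM in si-STRIP2, from 227, 180 and 219 counts and from 133, 109 and 81 counts. The groups were separate, with the widest spread of the 9 (coefficients of variation of 11.7% and 19.9%). The level in si-STRIP2 was 53.9% of control (-0.89 ± 0.125, log2 fold change and its standard error, with an edgeR adjusted p of 2.27e-07). On the log2(FPKM + 1) scale, which shrinks low genes, the limma log2 fold change was -0.42. Genes on the other strand that overlap the locus held far more counts: WASHC4 10.1 times as many, with no exon overlap in GENCODE 29, and NOPCHAP1 2.99 times as many, with overlapping exons. Their log2 fold changes were -0.18 and -0.026 (edgeR adjusted p = 0.000717 and 0.788). The library kit keeps strand, but the strand setting of the counting is not given in the sources used here, so the share of these reads in the value of ALDH1L2 was not tested.

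**Figure D2:**
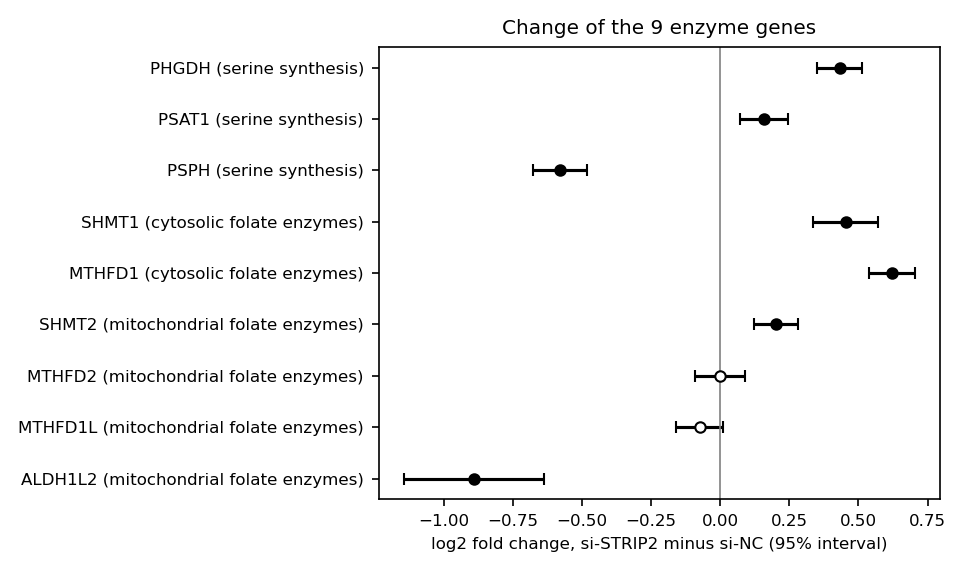
Log2 fold change (horizontal axis, si-STRIP2 minus si-NC) of the 9 genes with its 95% interval from edgeR. Filled points passed an adjusted p of 0.05 and open points did not. Cytosolic SHMT1 and MTHFD1 lie at 0.45 and 0.62, while mitochondrial MTHFD2 and MTHFD1L lie at 0.00 and -0.075.

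The mitochondrial and cytosolic enzymes of related reactions were compared as ratios within each library. The FPKM ratio of MTHFD1L to MTHFD1 was 4.68, 4.58 and 4.39 in si-NC and 2.85, 2.82 and 2.76 in si-STRIP2. All control libraries were above all si-STRIP2 libraries, and the geometric means differed 1.62-fold. The ratio of MTHFD2 to MTHFD1 was 8.87, 8.40 and 8.08 in si-NC and 5.46, 5.49 and 5.53 in si-STRIP2, a 1.54-fold difference of the geometric means without overlap. The ratio of SHMT2 to SHMT1 was 7.58, 7.92 and 8.50 in si-NC and 6.80, 6.31 and 6.97 in si-STRIP2, a 1.2-fold difference without overlap. The exact 2-sided permutation test gave p = 0.1 for each of the 3 ratios, before and after Benjamini-Hochberg adjustment, which is the smallest p that 3 libraries against 3 allow. The first and second ratios share MTHFD1 and are not independent of each other. All 3 ratios rest on SHMT1 or MTHFD1, whose values are uncertain through the overlapping genes given above.

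**Figure D3:**
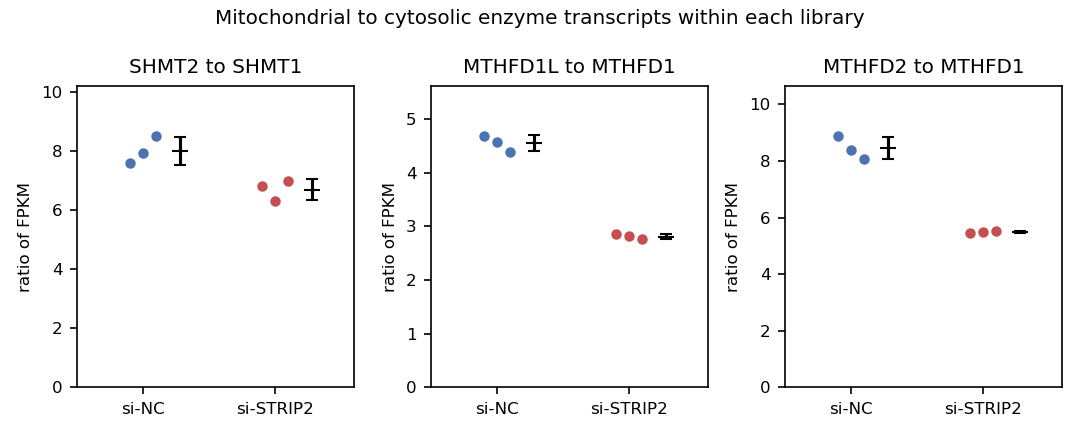
Ratio of the FPKM of a mitochondrial enzyme to that of its cytosolic counterpart (vertical axes from 0) in each si-NC (blue) and si-STRIP2 (red) library, with mean and SD in black. Each ratio is lower in the 3 si-STRIP2 libraries than in the 3 si-NC libraries.

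The order of the levels depended on the gene length used. By deposited FPKM in si-NC the order was PSAT1 (308 ± 12.96), MTHFD2 (72.9 ± 3.49), SHMT2 (43.9 ± 0.564), MTHFD1L (39.3 ± 1.97), PSPH (28.2 ± 1.42), PHGDH (17.8 ± 0.0721), MTHFD1 (8.64 ± 0.381), SHMT1 (5.50 ± 0.381) and ALDH1L2 (1.18 ± 0.139; SD, n = 3). The order changed in si-STRIP2 at one place, where PHGDH (24.1 ± 0.827) exceeded PSPH (18.9 ± 0.810). Ranges of neighbours in the control order did not overlap in either group. PSAT1 exceeded 99.6% of tested genes in mean FPKM and ALDH1L2 22.7%.

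The deposited exonic size joins all annotated exons and was 17357 bases for MTHFD1, where the principal coding transcript in GENCODE 29 has 3136 bases. For PHGDH the lengths were 9187 and 2585 bases, for SHMT1 7015 and 2464, and for PSAT1 2206 and 2188. Per length of the principal transcript, a choice made after seeing the data, PHGDH moved from the sixth to the fourth place in si-NC, MTHFD1 from the seventh to the sixth, MTHFD1L from the fourth to the fifth and PSPH from the fifth to the seventh. These values divide the counts over all annotated exons by that length, and the share of reads outside the principal transcript was not tested. On that scale MTHFD1L (53.3 ± 2.67) was above MTHFD1 (47.8 ± 2.09) in si-NC and below it in si-STRIP2 (50.7 ± 0.913 against 73.6 ± 1.34; SD, n = 3). Their ratio was 1.15, 1.12 and 1.08 in si-NC and 0.698, 0.692 and 0.676 in si-STRIP2. The ratio of MTHFD2 to MTHFD1 was 4.12, 3.90 and 3.75 in si-NC and 2.54, 2.55 and 2.57 in si-STRIP2. That of SHMT2 to SHMT1 was 4.82, 5.03 and 5.40 in si-NC and 4.32, 4.01 and 4.43 in si-STRIP2. The size of each ratio thus depended on the length used, while its fold difference between the groups does not. The fold change of a single gene between groups does not depend on the length.

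**Figure D4:**
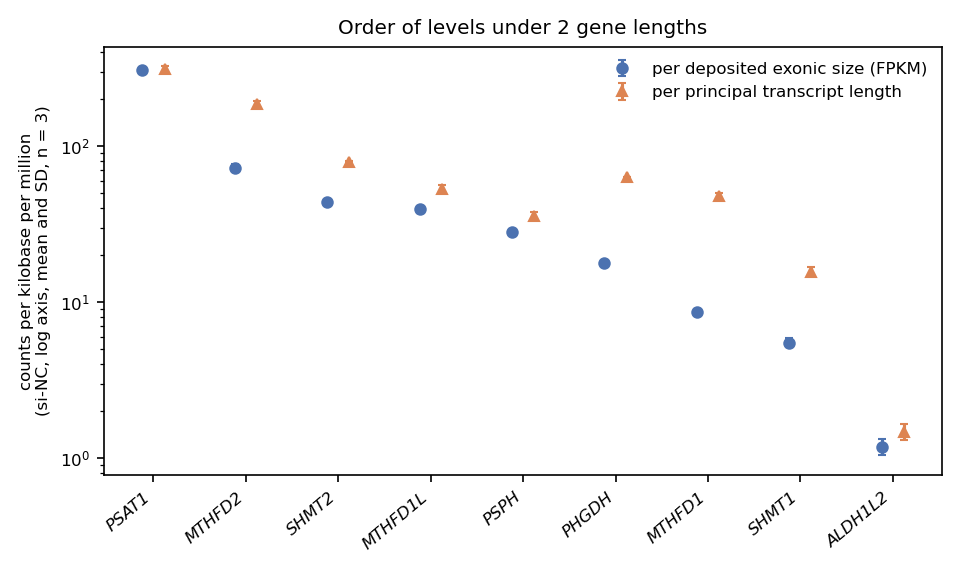
Level of the 9 genes in si-NC (counts scaled by length and library total, log axis, mean and SD over 3 libraries) with the deposited exonic size (blue circles) and with the principal transcript length of GENCODE 29 (orange triangles). MTHFD1 and PHGDH differ most between the lengths, by 5.53 and 3.55 times.

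Around the 9 enzymes, a list of 46 other genes of serine and one-carbon metabolism and its regulators was examined, in 9 groups. Of the 41 that could be tested, 32 were called (78.0%), 17 higher and 15 lower, and in 14 of them the higher group exceeded the lower by at least 25%. Over all genes tested these shares were 54.8% called, 27.8% higher, 27.0% lower and 32.9% with at least 25%. The counts given below for single groups of the list are to be read beside the same shares. Apart from the test against a 1.2-fold change, the alternatives called 28 to 33 of the listed genes. The median log2 fold change of the 41 genes was 0.003. In the following, SLC19A1, MTHFS, MTHFD2L, GCSH, GLDC, GART, MTFMT, MTR, CTH, CBS, SLC1A4, SFXN1, SFXN3, SDSL, GAPDH, PGK1, ATF4, ASNS, CHAC1, MYC and KDM4C are named after their values were seen.

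The methionine cycle, which takes up folate-bound units, was listed together with transsulfuration. Of the 6 tested genes of that list 3 rose and 1 fell, against 27.8% and 27.0% of all genes tested. MAT2A, which makes S-adenosylmethionine, had 72.18, 67.44 and 83.46 FPKM in si-NC and 118.71, 109.51 and 112.18 FPKM in si-STRIP2 (log2 fold change 0.61, edgeR adjusted p = 6.43e-12). AHCY, which clears S-adenosylhomocysteine, had 58.18, 58.15 and 54.33 FPKM in si-NC and 86.62, 88.09 and 85.56 FPKM in si-STRIP2 (log2 fold change 0.61, edgeR adjusted p = 1.04e-14). Neither gene's groups overlapped, and both changes were 1.52-fold. The other gene that rose was the methionine synthase MTR (0.30), and the one that fell was CTH of transsulfuration (-0.22), which was not called when replicate 2 of si-NC or of si-STRIP2 was left out (edgeR adjusted p = 0.124 and 0.0633). CBS was listed at 0 in 5 libraries and at 0.01 FPKM in the other.

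Of the glycolytic enzymes around 3-phosphoglycerate, all 3 tested were called higher, with PGAM1, which converts it onward, at a log2 fold change of 0.38 (edgeR adjusted p = 1.60e-09) and GAPDH and PGK1 at 0.31 and 0.11. PGK1 was not called with RLE size factors or the replicate block, nor without si-NC replicate 3, si-STRIP2 replicate 2 or si-STRIP2 replicate 3 (edgeR adjusted p = 0.0555, 0.0571, 0.145, 0.114 and 0.111). Of the users of formyl-folate, the purine enzymes ATIC (0.28, edgeR adjusted p = 7.08e-07) and GART (0.25, edgeR adjusted p = 1.38e-06) rose, and MTFMT, which formylates the mitochondrial initiator tRNA, had -0.066 and was not called (edgeR adjusted p = 0.452).

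Among folate-interconverting genes, TYMS, which makes thymidylate from a folate-bound unit, had 40.47, 40.76 and 37.23 FPKM in si-NC and 52.39, 53.99 and 55.09 FPKM in si-STRIP2, with no overlap (log2 fold change 0.44, edgeR adjusted p = 1.86e-10). MTHFS and MTHFD2L were not called, at -0.25 and 0.003 (edgeR adjusted p = 0.0681 and 0.977). MTHFS was called without si-NC replicate 2 (-0.34, edgeR adjusted p = 0.0234). It was also called with genes limited to at least 1 FPKM in 3 libraries (-0.27, edgeR adjusted p = 0.0499). Without si-NC replicate 1 its log2 fold change was -0.14 (edgeR adjusted p = 0.417).

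Of 6 folate transport and retention genes, 3 fell and 1, the reduced folate carrier SLC19A1, rose (0.25, edgeR adjusted p = 0.0264). SLC19A1 was not called by DESeq2 (adjusted p = 0.0894) or limma (0.154 on log2(FPKM + 1)), nor by edgeR without si-NC replicate 2 or si-STRIP2 replicate 2 (adjusted p = 0.117 and 0.147). FOLR1, a folate receptor, fell by 1.23 on the log2 scale from a low level of 1.37 ± 0.261 to 0.583 ± 0.0751 FPKM (SD, n = 3; edgeR adjusted p = 0.000147). On the log2(FPKM + 1) scale the limma log2 fold change of FOLR1 was -0.58. SLC25A32, the mitochondrial folate carrier, and GGH, which trims folate polyglutamates, fell by 0.35 and 0.30 (edgeR adjusted p = 0.00765 and 3.50e-06). Without si-STRIP2 replicate 1, SLC25A32 was no longer called (edgeR adjusted p = 0.0508).

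Of 7 tested genes of serine transport and breakdown, 4 fell and 2 rose. SLC38A2, a neutral amino acid transporter, had 311.78, 331.11 and 326.46 FPKM in si-NC and 258.00, 248.90 and 252.39 FPKM in si-STRIP2 (log2 fold change -0.36, edgeR adjusted p = 5.25e-08), with no overlap. SRR, the serine racemase, had -0.33 (edgeR adjusted p = 0.00247). The mitochondrial serine carrier SFXN1 fell by 0.19 and its relative SFXN3 rose by 0.27 (edgeR adjusted p = 0.000158 and 0.000231). The transporter SLC1A4 had 0.20 and SDSL, a serine dehydratase relative, had -0.28 (edgeR adjusted p = 0.021 and 0.0117). SLC1A4 was not called by DESeq2 (adjusted p = 0.0712) or limma (0.0709 on log2(FPKM + 1)), nor by edgeR without si-NC replicate 1, si-NC replicate 3 or si-STRIP2 replicate 2 (adjusted p = 0.067, 0.123 and 0.12). SDSL was not called without si-NC replicate 1 or si-STRIP2 replicate 3 (edgeR adjusted p = 0.071 and 0.0756). In the glycine cleavage system, DLD, a subunit that also serves other dehydrogenase complexes, fell by 0.47 (edgeR adjusted p = 1.74e-11), GCSH rose by 0.26 (edgeR adjusted p = 1.67e-05) and GLDC had 0.099 (edgeR adjusted p = 0.414).

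Among the regulators, the transcript of ATF4 and those of some of its targets went opposite ways. All 6 genes of that list were called, against 54.8% of all genes tested. ATF4 had a log2 fold change of 0.25 and ASNS, the asparagine synthetase, of 0.24 (edgeR adjusted p = 2.60e-06 and 0.00778). TRIB3 (-0.76), DDIT3 (-0.78), SESN2 (-0.53) and CHAC1 (-0.20) fell, with edgeR adjusted p-values of 3.80e-17, 8.14e-15, 4.75e-11 and 0.0191. ASNS was not called without si-NC replicate 2 or si-STRIP2 replicate 1 (edgeR adjusted p = 0.0687 and 0.084), nor CHAC1 without si-NC replicate 1 or si-STRIP2 replicate 3 (0.0824 and 0.138). Tested against a 1.2-fold change, ATF4, ASNS and CHAC1 were not called (edgeR adjusted p = 0.645, 0.669 and 0.921). The FPKM values of ASNS overlapped between the groups. TRIB3, DDIT3 and SESN2 encode a pseudokinase, the factor CHOP and a stress-induced sestrin.

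Of the 4 other regulators, EHMT2, a histone H3 lysine methyltransferase, had the largest rise among the 41 genes. It had 5.33, 5.21 and 5.51 FPKM in si-NC and 10.17, 10.12 and 10.09 FPKM in si-STRIP2, a level of 189% of control (log2 fold change 0.92, edgeR adjusted p = 3.80e-17). NFE2L2, which encodes NRF2, fell by 0.54 (edgeR adjusted p = 2.99e-13) and MYC by 0.22 (edgeR adjusted p = 1.29e-05), while the demethylase KDM4C rose by 0.27 (edgeR adjusted p = 0.000342).

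Several of these genes overlap others on the opposite strand, with exons in common, and are uncertain for the same reason as SHMT1, MTHFD1 and ALDH1L2. DCAF13 held 18.0 times as many counts as SLC25A32, TSR1 10.1 times as many as SRR, and MARS1 5.55 times as many as DDIT3. ENOSF1 held 59.2% as many counts as TYMS, AGPS 81.1% as many as NFE2L2 and LAMB1 24.7% as many as DLD. ENOSF1 and LAMB1 moved in the direction of the gene they overlap, with log2 fold changes of 0.63 and -0.51 (edgeR adjusted p = 1.57e-11 and 2.23e-09). MARS1 had -0.12 (edgeR adjusted p = 0.0126), lower as DDIT3 was. DCAF13 and TSR1 had 0.26 and 0.16 (edgeR adjusted p = 2.28e-06 and 0.00205), opposite to SLC25A32 and SRR, and AGPS had -0.007 (edgeR adjusted p = 0.894). SMG6 also overlaps SRR, with 2.22 times as many counts, and MBD6 overlaps DDIT3, with 39.8% as many. They had -0.11 and -0.20 (edgeR adjusted p = 0.135 and 0.03), the direction of SRR and DDIT3. GGCX held 6.84% as many counts as MAT2A and had -0.19 (edgeR adjusted p = 0.0166), opposite to MAT2A. Overlaps were not searched for the genes named after their values were seen. The share of these reads in the values of the listed genes was not tested.

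**Figure D5:**
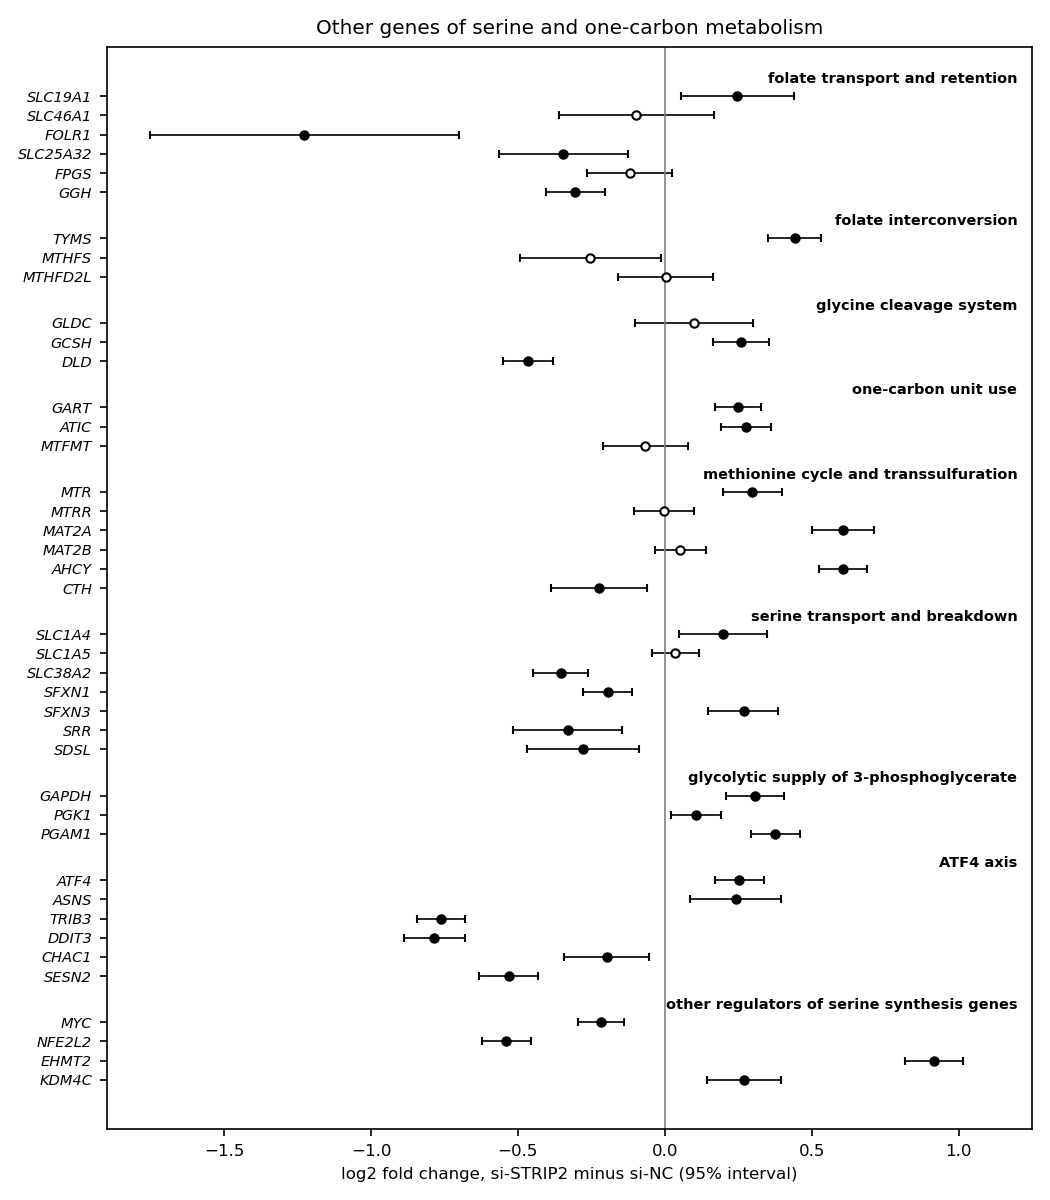
Log2 fold change (horizontal axis, si-STRIP2 minus si-NC, with 95% interval) of the 41 tested genes around the 9 enzymes, by group. Filled points passed an adjusted p of 0.05 in edgeR. FOLR1 lies lowest at -1.23 and EHMT2 highest at 0.92.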

How the data were processed

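Poly(A) RNA-seq of 6 HCT116 libraries was analysed, 3 per group. Per the submitters' processing notes, the tools were bcl2fastq 2.20.0.422, FastQC 0.10.1, cutadapt 1.9.1, HISAT2 2.2.1 and HTSeq 0.6.1 with GRCh38.p13. The annotation release and the strand setting are not given in the sources used here. The authors deposited raw counts and FPKM per gene. The deposited FPKM equalled counts per exonic size and column total within 0.005.

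Counts were tested with edgeR 4.0.16 in R 4.3.3: filterByExpr (minimum count 10), TMM scaling, quasi-likelihood F test with group as the only term, and Benjamini-Hochberg adjustment over 15687 genes. Standard errors were taken from the fold change and the root of its F statistic. Intervals are 95%. Alternatives used limma 3.58.1, DESeq2 1.42.0, other scalings, other filters, a 1.2-fold test and each library left out. Ratios used exact permutation tests (scipy 1.17.1). The edgeR script was tested on simulated data in which few genes changed and all genes shared a dispersion. These data differ in both respects, so that test checks the code and gives no error rate for the calls made here.

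The members and the gene lists were chosen with earlier results of these data known. Of the listed pathway genes, the text names those called with at least a 25% difference and the gene with the smallest adjusted p in each list. Others were picked with their values in view. Some listed genes are not reported here. Motifs were searched on both strands in 250 bases.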

Additional observations from a re-analysis of the deposited data

How the results depend on the processing

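For the 9 enzymes, 125 of 135 values under the 15 alternatives kept their direction and their side of the threshold. Tested against a 1.2-fold change, PSAT1 (0.159) and SHMT2 (0.201) were no longer called, which left 3 members higher, 12 pathway genes (5 higher, 7 lower) and 3723 of all genes (1780 higher, 1943 lower), since that test asks for a larger change. MTHFD1L became called with the filter of at least 1 FPKM (-0.093) and without si-NC replicate 3 (-0.108). Leaving out each library in turn gave -0.108 to -0.046 for it. MTHFD2, never called, had a log2 fold change below 0 under DESeq2 (-0.006), with RLE size factors (-0.006) and with the filter of at least 1 FPKM (-0.018), and from -0.039 without si-NC replicate 3 to 0.028 over the 6 fits that left out a library (-0.009 and -0.013 without si-STRIP2 replicates 2 and 3). The cause was not tested. Of 540 values of the 36 tested pathway genes named, 487 kept their direction and call. There were 45 lost calls, 20 under the 1.2-fold test, 17 with a library left out and 8 under other alternatives, and MTHFS gained 2. Apart from the 1.2-fold test, 8 genes lost a call: SLC19A1, SLC25A32, CTH, SLC1A4, SDSL, PGK1, ASNS and CHAC1. MTHFD2L, never called, changed sign under DESeq2 (-0.005), with RLE size factors (-0.004) and the filter of at least 1 FPKM (-0.015) and ranged from -0.037 to 0.046 over the fits that left out a library.

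Libraries with the same number did not deviate together (correlations of -0.086, -0.013 and -0.072). This cannot exclude that they were handled as pairs, since a pair need not leave a shared deviation. With the replicate block, 7 members, 31 pathway genes and 8293 genes were called. Low counts limit FOLR1 and ALDH1L2, among others.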
